A study of Homo sapiens with 2 samples.

Results

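The HIST1 cluster is the main group of replication-dependent histone genes in the human genome and lies on the short arm of chromosome 6 in 2 blocks. Block A, at 26.01 to 26.29 Mb, and block B, at 27.08 to 27.88 Mb, are given in build hg19. METTL3 HiChIP contacts were taken as members when either of their ends overlapped a block by at least 1 bp, whatever their strength. This gave 21 of 12221 interactions in the library of control cells and 392 of 150390 in the library of senescent cells. An interaction here is a pair of genomic intervals, called anchors, that was joined by at least 1 paired-end tag (PET), which is 1 sequenced ligation between the anchors. The member interactions held 22 of 14373 PETs in the control library and 482 of 184165 in the senescent library.

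Histones H2A, H2B, H3 and H4 form the core particle around which nuclear DNA is wrapped, and H1 binds the linker DNA between particles. The genes of this cluster are transcribed mainly while DNA is copied, and their messages end in a stem-loop in place of a poly(A) tail. In the nucleus they gather at the histone locus body, a compartment built around the coactivator NPAT. METTL3 is the catalytic subunit of the complex that methylates adenosines in RNA, and it can be found on chromatin. Senescence is a lasting exit from the cell cycle, so a senescent culture copies little DNA.

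By gene order in the RefSeq table (GRCh38.p14), block A runs from H1-1 to H4C8 and block B from H2BC11 to H2BC17. Between H1-1 and H4C8 stood 32 histone genes, namely 5 of H1, 4 of H2A, 8 of H2B, 7 of H3 and 8 of H4, and 1 other protein-coding gene, HFE, whose product regulates iron uptake. Between H2BC11 and H2BC17 stood 21 histone genes in a pair of runs. The first run, H2BC11 to H2AC12, had 5 genes and the last run, H2BC13 to H2BC17, had 16. The runs were separated by 51 tRNA genes and by 5 other protein-coding genes, which include PRSS16, a serine protease of the thymus, and the zinc finger genes ZNF391 and ZNF184. The stretch between H4C8 and H2BC11 held 47 tRNA genes and 9 protein-coding genes, among them the butyrophilins BTN3A1, BTN2A1 and BTN1A1, and HMGN4, which encodes a nucleosome-binding protein. The gene table and the contacts are on different builds, so no gene was assigned to an anchor below.

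The promoters of the cluster share short sequence elements that the choice of members did not use. In the 250 bases before the start of transcription, the octamer ATTTGCAT, the site of the factor OCT1 in H2B promoters, was found on either strand for 20 of 48 histone genes of the blocks that had a promoter in the RefSeq table. Over all 27305 genes of that table the share was 1.66%. The octamer lay before 11 of 14 H2B genes and 8 of 10 H2A genes, before 1 of 8 H3 genes, and before none of 10 H4 and 6 H1 genes. It was present in both blocks, for 12 of 30 genes of block A and 8 of 18 of block B. Of 9 pairs of neighbouring histone promoters that overlapped, 8 joined an H2A gene with an H2B gene. Such a pair can count the same octamer for both genes, and how often it did was not checked. TATAAA was found for 31 of the 48 genes against 11.1% of all genes. CCAAT was found for 41 of 48 against 33.04% of all genes, and for only 3 of the 10 H4 genes. A match of letters is a description and does not show that a factor binds there. The sequences below, from RefSeq on GRCh38.p14 and written 5′ to 3′, show one promoter of block A, one from each run of block B and one of a linker histone gene. In the H2B promoters capitals mark the octamer or its reverse complement, and in the H1-5 promoter they mark CCAAT or its reverse complement.

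H2BC10, block A (chr6:26272681-26272930, plus strand): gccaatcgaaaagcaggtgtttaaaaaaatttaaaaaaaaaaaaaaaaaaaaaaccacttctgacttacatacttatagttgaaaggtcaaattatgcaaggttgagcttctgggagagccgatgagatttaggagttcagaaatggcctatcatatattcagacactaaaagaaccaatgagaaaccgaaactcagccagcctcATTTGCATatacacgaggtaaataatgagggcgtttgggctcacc
H2BC11, first run of block B (chr6:27132796-27133045, minus strand): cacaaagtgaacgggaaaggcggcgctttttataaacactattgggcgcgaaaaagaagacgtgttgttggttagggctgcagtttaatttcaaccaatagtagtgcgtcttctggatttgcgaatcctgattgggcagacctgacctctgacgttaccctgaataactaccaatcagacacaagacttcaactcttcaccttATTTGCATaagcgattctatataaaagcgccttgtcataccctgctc
H2BC17, last run of block B (chr6:27893175-27893424, plus strand): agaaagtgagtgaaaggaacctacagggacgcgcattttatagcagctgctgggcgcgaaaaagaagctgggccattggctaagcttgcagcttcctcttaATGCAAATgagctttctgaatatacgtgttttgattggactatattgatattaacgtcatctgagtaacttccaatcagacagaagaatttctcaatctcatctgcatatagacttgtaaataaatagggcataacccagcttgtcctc
H1-5, last run of block B (chr6:27867589-27867838, minus strand): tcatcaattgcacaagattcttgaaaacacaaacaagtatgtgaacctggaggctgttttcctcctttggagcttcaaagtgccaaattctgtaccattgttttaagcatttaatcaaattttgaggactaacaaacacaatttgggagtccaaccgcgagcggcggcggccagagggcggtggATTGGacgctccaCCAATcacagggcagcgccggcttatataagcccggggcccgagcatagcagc

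Both libraries came from IMR90, a line of primary diploid fibroblasts from human embryonic lung, labelled wild type and grown at 2% oxygen. One library was made from control cells and 1 from senescent cells. Senescence was brought about by an inducible protein that joins the estrogen receptor to H-RAS with the G12V change. The sources used here do not give the inducing agent or its duration, nor whether the control cells carried the construct. HiChIP ligates DNA ends that are close in the nucleus and enriches those bound by the chosen protein, here METTL3, so the comparison addresses which contacts of METTL3-bound chromatin were found in each state. There was 1 library per group, so no difference has a replicate check, and every interval below is a 95% interval for counting error only. The senescent library held 12.8 times the PETs of the control library overall and 6.99 times those of chromosome 6. Only joined pairs are listed, so the totals do not give the depth of sequencing, and no upper limit follows for an unlisted pair. A PET needs both METTL3 on the chromatin and ligated ends, and more of the one or the other, in more cells or per cell, cannot be told apart.

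The blocks differed in how their contacts compared between the libraries. Block A was touched by 17 control PETs and 205 senescent PETs, which is 118 and 111 per 100000 deposited PETs, a senescent over control ratio of 0.941 (0.574 to 1.65, exact conditional binomial interval). Block B was touched by 5 control PETs and 293 senescent PETs, 34.8 and 159 per 100000, a ratio of 4.57 (1.94 to 14.2). Block A thus took about the same share of each library, within a wide interval, while block B took a larger share of the senescent library. Leaving out PETs that joined the blocks, block B held 5 control PETs beside 17 in block A (22.7%, 7.82 to 45.4%, exact Clopper-Pearson interval). It held 277 senescent PETs beside 189 in block A (59.4%, 54.8 to 63.9%). The ratio for block B was 4.97 times that for block A (1.72 to 17.5, conditional odds ratio), and this comparison needs no scaling of the libraries to each other. With PETs scaled to chromosome 6 in place of the whole library, the ratio was 1.72 (1.05 to 3.02) for block A and 8.38 (3.55 to 26.0) for block B. For both blocks together it was 1.71 (1.12 to 2.75) by deposited PETs and 3.13 (2.05 to 5.05) by those of chromosome 6. With interactions counted in place of PETs, the ratio of both blocks was 1.52 (0.979 to 2.48), an interval that takes in 1.

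**Figure D1:**
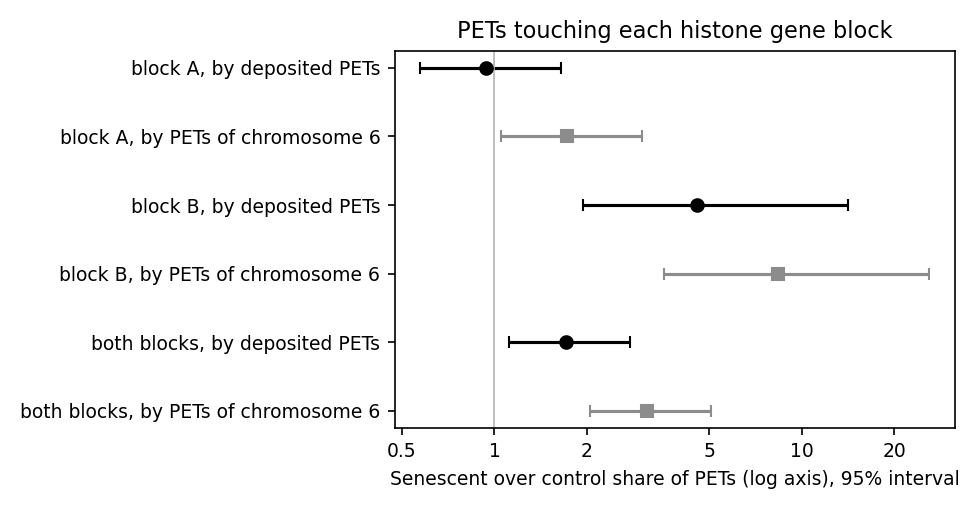
Senescent over control share of PETs touching block A, block B and both, on a log axis, with 95% exact conditional binomial intervals for counting error; circles are scaled to all deposited PETs and squares to those of chromosome 6. By deposited PETs block A sits at 0.941 with an interval across 1, and block B at 4.57 with an interval above 1.

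The 1-Mb windows that hold the blocks fell on opposite sides. In the window at 27 to 28 Mb the control library had 8 PET ends and the senescent library 507, a ratio of shares of 4.95 (2.49 to 11.5). In the window at 26 to 27 Mb, which takes in block A and most of the stretch between the blocks, the counts were 100 and 629, a ratio of 0.491 (0.397 to 0.612). Of 2126 autosomal windows with at least 10 ends over both libraries, 495 had none in the control library. Of all 2126, 45.9% had a senescent share at least 2-fold the control share and 28.1% had the reverse, so each direction was common. By number of ends, the window at 26 to 27 Mb ranked 34th in the control library and 78th in the senescent one. The window at 27 to 28 Mb ranked 843rd and 136th. The stretch next to block A carried the control contacts of the first window: the 100 kb from 26.3 to 26.4 Mb held 47 control ends, against 14 in the 100 kb before it. Widening each block by 50 kb takes in part of this stretch and lowered the ratio of both blocks together to 0.829 and that of block A to 0.439, while block B stayed at 4.67.

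The control contacts were few enough to be read one by one. All but 1 rested on a single PET. The exception, with 2 PETs, joined the end of block A at 26271828 to 26274148 with the anchor between the blocks at 26312234 to 26314596, 40.4 kb away. Within block A there were 9 contacts, which spanned 8.22 to 227 kb. Of these, 4 used the anchor at 26044384 to 26046750, the control anchor with the most partners in either block. The anchors at 26271828, 26024854, 26065539 and, in block B, 27445949 followed with 3 partners each. Block A also had 6 contacts with the stretch between the blocks and 1 with the region before it. Of these, 26021369 to 26023654 was joined with 26364155 to 26366903 over 343 kb, and 26065539 to 26067811 with 26926393 to 26930477 over 862 kb. Block B had 3 contacts within itself and 2 with the stretch between the blocks. The longer of the latter joined 26321370 to 26324270 with 27814457 to 27816398 over 1493 kb, the longest control contact of the cluster. The other joined 26568418 to 26570612 with 27445949 to 27448086 over 878 kb. No control contact joined the blocks.

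**Figure D2:**
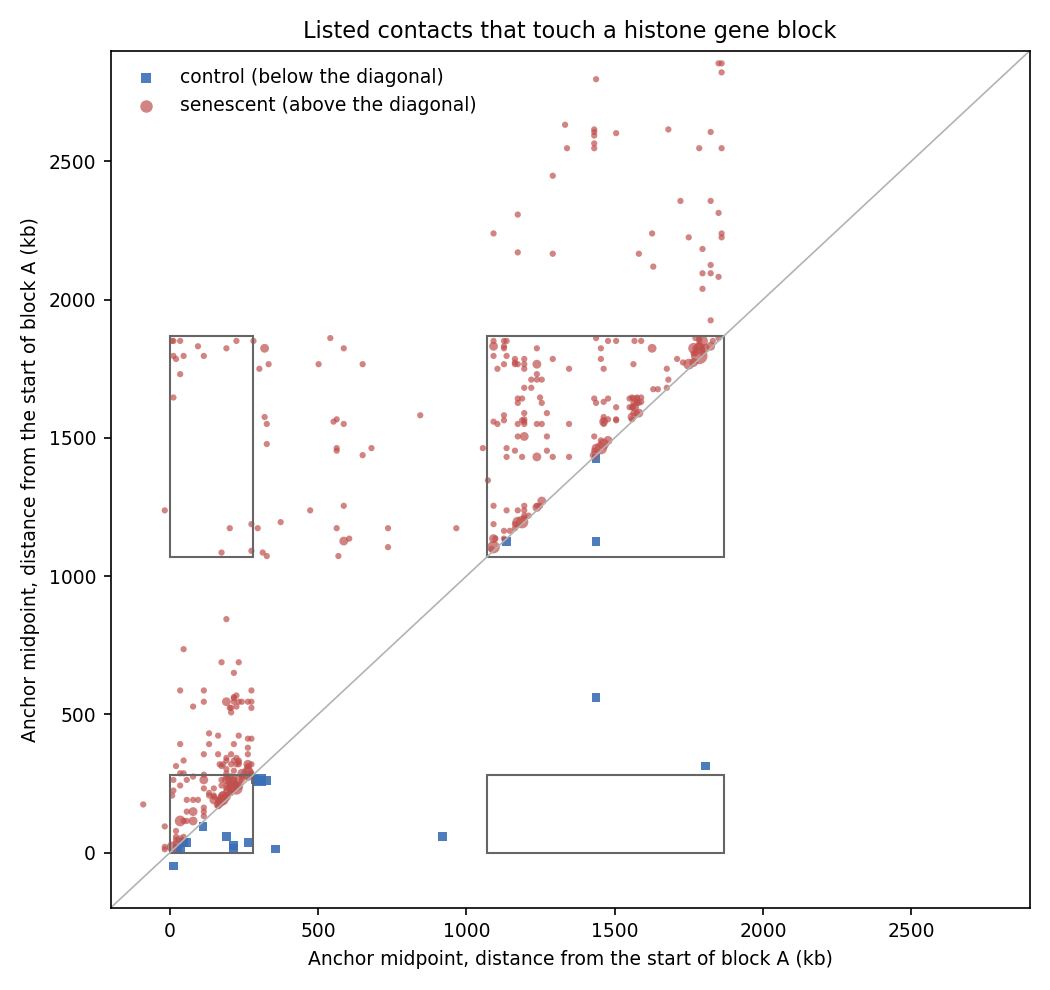
Map of the listed contacts that touch a block; both axes give the distance of an anchor midpoint from the start of block A in kb, boxes outline the blocks, red circles are senescent contacts above the diagonal, blue squares are control contacts below it, and symbol area follows the number of PETs. All 21 control contacts and 386 of 392 senescent contacts lie inside the axes; the boxes off the diagonal, which join the blocks, hold 16 senescent and 0 control contacts.

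Of the blocks, both were crowded with anchors in the senescent library, and block A was in the control library. The control library had 12 anchors in block A, 42.9 per Mb, where none of 2432 autosomal 1-Mb windows reached that density, although a block of 0.28 Mb can be denser than any full window. It had 5 anchors in block B, 6.25 per Mb, against a median of 3 per window. The senescent library had 24 anchors in block A and 56 in block B, 85.7 and 70.0 per Mb, against a median of 25.0. Windows at least that dense made up 1.40% and 6.29% of all. The stretch between the blocks was crowded too, with 14 control and 45 senescent anchors, 17.7 and 57.0 per Mb. Windows at least as dense as this stretch made up 4.32% in the control and 13.9% in the senescent library. All 12 control anchors of block A overlapped a senescent anchor, and so did 4 of 5 in block B. The fifth, at 27435325 to 27437197, lay within 5 kb of one. Over the autosomes 69.8% of control anchors overlapped a senescent one. In the other direction, 14 of 24 senescent anchors in block A and 52 of 56 in block B had no control anchor. The share that overlapped one was 41.7% in block A (22.1 to 63.4%) and 7.14% in block B (1.98 to 17.3%). Over the autosomes it was 11.2%, so lacking a control anchor was common everywhere and block B was near that background.

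At the sites listed in both libraries the control values were small. The 12 control anchors of block A had 1 to 4 PETs each, and the senescent anchors over them had 3 to 32. The 4 matched control anchors of block B had 1 to 3 PETs and their senescent counterparts 5 to 10. Every matched site therefore had more PETs in the senescent library before scaling, in a library with 12.8 times the PETs.

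**Figure D3:**
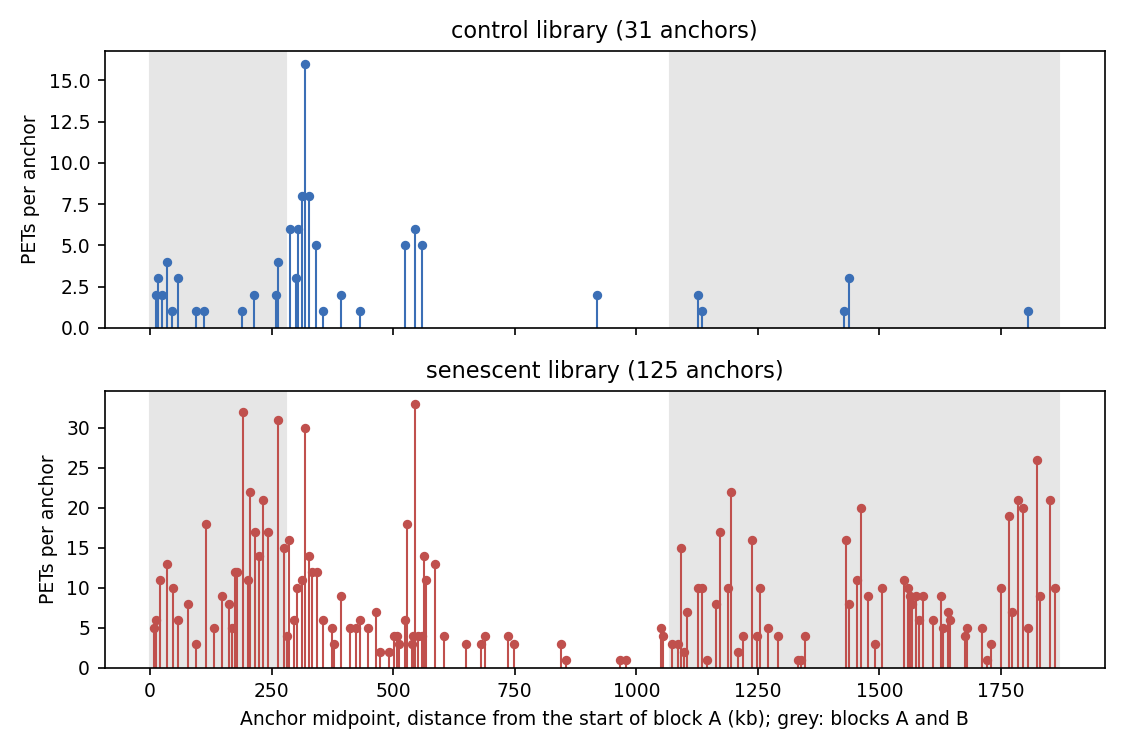
PETs per anchor in the control (31 anchors) and senescent (125 anchors) libraries across block A, the stretch between the blocks and block B, by distance of the anchor midpoint from the start of block A in kb, with the blocks in grey and separate vertical scales. The control library has 5 anchors in block B, while the senescent library has 56 there.

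The senescent cluster held several hubs, each an anchor with many partners. Of its anchors, 10 of 24 in block A (41.7%) and 13 of 56 in block B (23.2%) had at least 10 partners, against 6.96% of all autosomal senescent anchors. Between the blocks it was 10 of 45 (22.2%), close to the share in block B, and an anchor there had 24 partners, more than any block anchor. In the control library no block anchor had as many, against 0.347% of autosomal anchors. Median anchor width was 3830 bp in block A, 2863 bp in block B and 2930 bp over the autosomes. More anchors within reach allow more partners. The senescent library had 85.7 anchors per Mb in block A, 70.0 in block B and 57.0 between the blocks, against a median of 25.0 per autosomal window. The parts of anchor density and anchor width in the partner counts were not tested.

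Among block anchors, the one with the most partners was in block A at 26194847 to 26205954. It was 11.1 kb wide and had 23 partners and 32 PETs, and 15 of its partners lay in block A, 6 between the blocks, 1 in block B and 1 before block A. The control anchor inside it, at 26198798 to 26200998, had 1 PET. The next, at 26270313 to 26275153, had 19 partners and 31 PETs, with 11 partners in block A and 8 in the adjoining stretch. It covered a pair of control anchors with 6 PETs between them. In block B the anchor at 27857157 to 27863715 had 19 partners and 21 PETs, and that at 27830944 to 27836565 had 18 and 26. Neither overlapped a control anchor. A further hub of block B, at 27202452 to 27207624, had 16 partners and 22 PETs, and 15 of those partners lay in block B. In block A, 26214002 to 26218556 also had 16 partners and 22 PETs.

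Some senescent contacts were found by more than 1 PET. Of the member interactions 61 (15.6%) had at least 2 PETs, against 14.4% of all senescent interactions. The strongest, with 7 PETs, joined 27789988 to 27800438 with 27803554 to 27808886 near the end of block B, over 11.01 kb. Contacts with 4 PETs followed. In block A, 26214002 to 26218556 was joined with 26270313 to 26275153 over 56.5 kb, and the latter with 26294740 to 26298439, just past the block, over 23.9 kb. In block B, 27098115 to 27104691 was joined with 27112950 to 27116271, and 27461833 to 27465167 with 27469522 to 27476024, over 13.2 and 9.27 kb.

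Sites within a block were joined more often in the senescent library than sites at the same distances elsewhere. Of 274 possible anchor pairs within block A that lay 5 kb to 2 Mb apart, 72 were joined (26.3%, 21.2 to 31.9%), against 14.7% of all autosomal senescent anchor pairs at those distances. Within block B 158 of 1536 were joined (10.3%, 8.81 to 11.9%), against 7.23%. For the anchors between the blocks the share was 8.53% (6.86 to 10.4%) against 9.25%. In the control library 9 of 64 pairs were joined within block A (14.1%, 6.64 to 25.02%) against 21.4%, and 3 of 10 within block B against 17.3%, so neither count stood clear of its background. These shares can be compared within a library only, since every listed anchor has at least 1 partner and the tables differ in size.

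The distances at which pairs were joined more often than elsewhere differed in part between the blocks. Under 20 kb, 73.3% of 30 pairs of block A were joined (54.1 to 87.7%) against 44.8% of all autosomal pairs. From 20 to 50 kb it was 37.0% of 54 (24.3 to 51.3%) against 22.2%, and from 50 to 100 kb 29.0% of 69 (18.7 to 41.2%) against 11.3%. From 100 to 200 kb it was 6.19% of 97 (2.30 to 12.98%) against 6.34%. From 200 to 500 kb, 4 of 24 pairs of block A were joined (16.7%, 4.74 to 37.4%) against 2.83%. Block A is 0.28 Mb long, so its pairs fill only the lower end of this class. The autosomal share falls with distance, so 2.83%, taken over the whole class, is likely too low for them. In block B the shares under 20 kb (44.6% of 65) and from 20 to 50 kb (23.5% of 102, against 22.2%) were close to those of all pairs. From 50 to 100 kb, 16.7% of 174 were joined (11.5 to 23.1%) against 11.3%. From 200 to 500 kb, 7.25% of 621 pairs were joined (5.33 to 9.58%) against 2.83%. From 500 to 1000 kb, 6.69% of 284 were joined (4.08 to 10.3%) against 1.02%. Block B is 0.8 Mb long, so its pairs also leave the upper part of this class empty, and 1.02% is likely too low for them. From 100 to 200 kb the share was 4.14% of 290 (2.16 to 7.12%), an interval that takes in the 6.34% of all pairs.

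Contacts of block B also crossed an interval with no anchors. No senescent anchor lay between 27357713 and 27439246, 81.5 kb that split the block into a first part with 22 anchors and a second part with 34. Of the 748 pairs across this interval 57 were joined (7.62%, 5.82 to 9.76%), against 2.30% of autosomal pairs at those distances. Within the first part the share was 10.8% (7.13 to 15.6%) against 14.6%, and within the second 13.6% (10.9 to 16.8%) against 10.8%. This division was made after the contacts were seen. The median span of the contacts touching block B was 364 kb (284 to 438 kb, order-statistic interval), against 112 kb (83.9 to 149 kb) for block A and 97.4 kb over the autosomes. In the control library the median was 311 kb for the 5 contacts touching block B (9.67 to 1493 kb). For the 16 touching block A it was 52.5 kb (19.5 to 198 kb). Block B had the longer median in both libraries, and its control interval takes in the senescent value. Block A is 0.28 Mb long and block B 0.8 Mb, which limits how far a contact inside each can span. The longest senescent contacts within them spanned 251 and 759 kb. The part of block length in the medians was not tested.

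**Figure D4:**
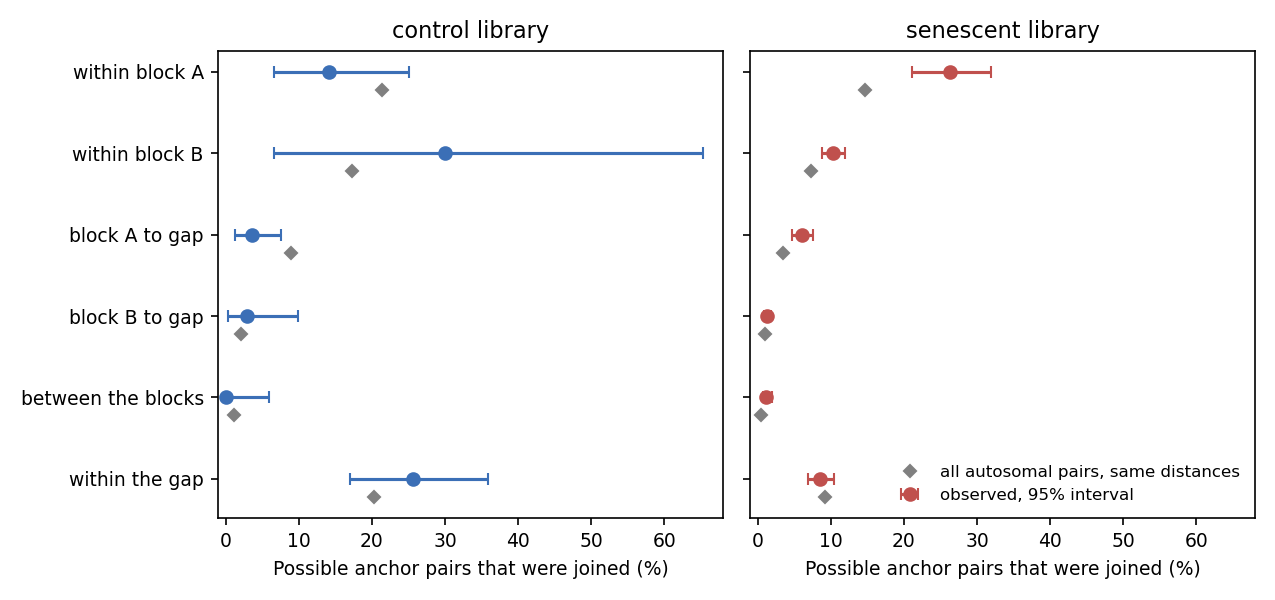
Share of possible anchor pairs that were joined, in percent, for each class of contact in the control and senescent libraries (gap, the stretch between the blocks); dots are observed shares with 95% Clopper-Pearson intervals, and grey diamonds are the shares of all autosomal pairs of the same library at the same distances. In the senescent library the pairs within block A (26.3%) and within block B (10.3%) lie above their diamonds (14.7% and 7.23%), and those between the blocks are at 1.19% against 0.464%.

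The blocks were joined to each other in the senescent library by 16 contacts of 1 PET each, which spanned 817 to 1843 kb. They made up 3.32% of the cluster's senescent PETs (1.91 to 5.33%). Of 1344 possible pairs of a block A and a block B anchor, 16 were joined (1.19%, 0.682 to 1.93%), against 0.464% of autosomal pairs at the same distances and 0.640% of pairs on chromosome 6. The control library had 60 such pairs and joined none, where its autosomal share would give less than 1 contact (1.18% of pairs), so an absence was not detectable at this depth. Because every one of the 16 contacts is a single PET, none would be left with a minimum of 2 PETs. They were spread over 12 of the 24 anchors of block A and 11 of the 56 anchors of block B.

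Most of these contacts ended in the last part of block B. Between 27.8 and 27.9 Mb, 6 anchors of block B took part in 9 of the 16 contacts, which is 6.25% of 144 possible pairs (2.90 to 11.5%) against 0.311% of autosomal pairs at those distances. In the 100 kb before, 2 of 168 pairs were joined, and between 27 and 27.3 Mb 4 of 432 (0.926%, 0.253 to 2.35%) against 0.634%. From 27.3 to 27.7 Mb 25 anchors had 1 contact with block A in 600 possible pairs (0.167%, up to 0.925%), against 0.414%. The bins were chosen after the contacts were seen. The anchor at 27857157 to 27863715 alone held 4 of the contacts, with 26015730 to 26019035, 26019667 to 26023654, 26042152 to 26046767 and 26232388 to 26235947. The first 3 of these, over 1843, 1839 and 1816 kb, were the longest contacts of the cluster. The anchor at 27803554 to 27808886 held 3. Without the anchor that had 4, the share of joined pairs between the blocks was 0.909% (0.471 to 1.58%) against 0.467% over the autosomes. This interval only just clears the autosomal share. It takes in the 0.640% of pairs on chromosome 6, a share taken with that anchor included. The 6 anchors at 27.8 to 27.9 Mb were rich in contacts of every kind, with a median of 15 PETs and a median width of 5465 bp, against a median of 8 PETs for all of block B. Whether the contacts with block A follow from this was not tested.

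On the side of block A, sites near its start took part most often for their number. The 6 anchors that begin before 26.07 Mb had 8 of the 16 contacts with block B and 7 contacts with the stretch between the blocks. The other 18 anchors had 8 contacts with block B and 58 with that stretch. The 8 contacts of the first group all ended in block B at or after position 27654388. This boundary was chosen after the contacts were seen. These counts have no background at the same distances, and the first group lies farther from the stretch between the blocks. The part of distance in its few contacts with that stretch was not tested.

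Contacts with the stretch between the blocks, at 26.29 to 27.08 Mb, were set apart. In the senescent library block A had 65 of them with 72 PETs, and 6.02% of possible pairs were joined (4.68 to 7.61%) against 3.48% at those distances. Block B had 33 with 35 PETs, 1.31% (0.903 to 1.83%) against 1.05% over the autosomes and 1.30% over chromosome 6. The control library listed 6 and 2. For block A these were 6 of 168 possible pairs (3.57%, 1.32 to 7.61%), below the 8.96% of autosomal control pairs at those distances. For block B they were 2 of 70 (2.86%, 0.348 to 9.94%) against 2.06%. Of the senescent contacts of block A, 33 of 65 ended within 100 kb of its edge. Beyond the cluster, block A had 10 senescent contacts towards the start of the chromosome and none past block B. Block B had 37 contacts past its end, up to position 28866126, and 1 before block A. All 37 were single PETs, with a median span of 782 kb, and the control library had none. The longest senescent contact on the autosomes spanned 1999.93 kb. At such a limit block A could reach only a short way past block B, and block B only a short way before block A. The counts beyond the cluster have no background at the same distances, so the blocks cannot be compared by them.

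The number of PETs that pass over a point shows how far the contacts bridged the region. In the senescent library a median of 52 PETs spanned points in block A, 59.5 in the stretch between the blocks and 93 in block B, against a median of 8 over chromosome 6. At the start of block A, at 26.01 Mb, 18 PETs spanned the point, and at 27.86 Mb near the end of block B 54 did. In the control library the medians were 6, 4 and 1, against 0 over chromosome 6, with the most, 16, at 26.36 Mb just past block A.

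**Figure D5:**
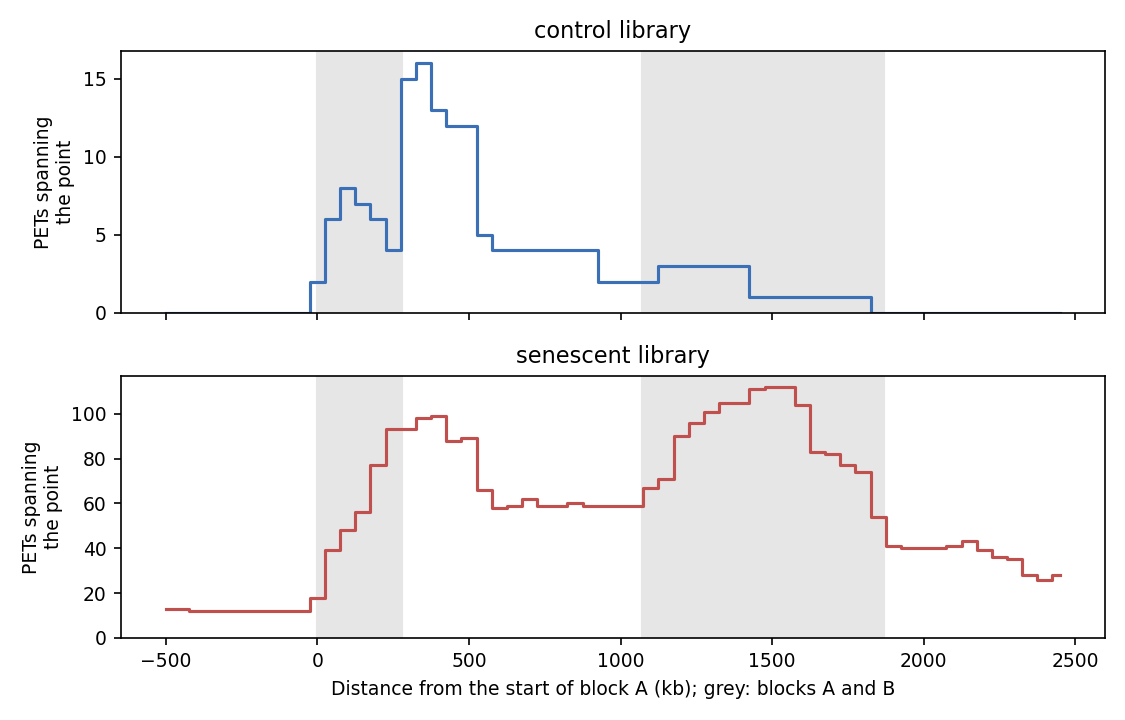
Number of PETs that span each point, at steps of 50 kb, by distance from the start of block A in kb, in the control and senescent libraries, with the blocks in grey and separate vertical scales. The senescent profile peaks at 112 PETs inside block B, and the control profile peaks at 16 PETs just past block A.

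A minority of contacts were found in both libraries. Of the 21 control contacts 7 (33.3%, 14.6 to 57.0%) had a senescent contact that overlapped both ends, against 16.6% of all autosomal control contacts. These matched 6 of the 392 senescent contacts (1.53%, 0.564 to 3.30%), against 1.29% over the autosomes. In block A they joined 26042152 to 26046767 with 26025512 to 26035370 and with 26054193 to 26057864, by 1 and 2 senescent PETs, and 26065539 to 26067811 with the hub at 26194847 to 26205954 by 1 PET over 134 kb. Next to it, the site at 26270313 to 26275153 was joined with 26294740 to 26298439 and with 26308526 to 26314596, by 4 and 2 senescent PETs against 1 and 3 control PETs. In block B the shared contact joined 27135470 to 27137805 with 27143543 to 27147281, by 1 PET in each library. No contact past 200 kb was shared, but few control contacts were that long. No autosomal share was taken at that length, so this does not show an effect of distance.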

How the data were processed

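METTL3 HiChIP was measured in 1 control and 1 senescent library of IMR90 cells. Per the submitters' processing notes, HiC-Pro 3.1.0 was used with hg19. The deposited tables have no header. Their whole numbers were taken as the authors' raw counts of PETs. The last deposited column lies between 0 and 1 and was read as a p-value, possibly adjusted. The sources used here do not state the interaction caller, how anchors were set or whether duplicates were removed. The last column only broke ties in ranks.

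Contacts were placed by anchor overlap of at least 1 bp, blocks before surroundings, with Python 3.11.15, numpy 2.4.6, pandas 2.3.3, scipy 1.17.1 and matplotlib 3.10.9. Starts are printed 1-based. Background shares used 20 distance classes per factor of 10 and pairs 5 kb to 2 Mb apart by midpoint. No test was possible with 1 library per group. Intervals cover counting error, and copies of 1 molecule would make them too narrow. The interval and pair-counting steps were tested on simulated data.

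Named were, per library, the 5 contacts with the most PETs, the 3 longest, the 5 anchors with the most partners and PETs, and shared contacts. Contacts between the blocks were to be named from 2 PETs, which none had, so those of 2 anchors were described after their values were seen. Members and lists were chosen with earlier results of these data known. The planned assignment of genes to anchors was not made, since the gene table is on GRCh38.p14. Promoter motifs were added later.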

Additional observations from a re-analysis of the deposited data

How the results depend on the processing

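The control library limits what can be compared: 22 PETs of the cluster, 5 of them in block B, allow only wide intervals. Of 57 alternative values 36 stayed within the interval of the reported value. Some of these 36 could not move, such as joined shares for which only the background was changed. The ratio of both blocks together (1.71) was 3.13 scaled to chromosome 6, 21.9 without scaling and 5.15 with at least 2 PETs, and turned to 0.829 with blocks widened by 50 kb, which takes in the control contacts just past block A. For block A (0.941) these values were 1.72, 12.1, 2.46 and 0.439. The values with at least 2 PETs rest on 1 control contact. Their intervals were 1.40 to 42.9 for both blocks and 0.655 to 20.7 for block A, and the latter takes in 1. Block B (4.57) moved without scaling, to 58.6, and gave no value with at least 2 PETs, since no control contact of it had as many. The settings for the separate blocks were chosen after the data were seen.

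With at least 2 PETs, contacts between the blocks made up 0% of senescent cluster PETs and 0% of possible pairs. Contacts within block A (21.99% of senescent PETs) then made up 38.4% and those within block B (42.3%) 49.7%. Within block A the share was 18.4% of interactions, and 28.4% with widened blocks. The senescent median span (197 kb) was 100.6 kb weighted by PETs and 284 kb without spans under 20 kb. The share of control block anchors listed in the senescent library (94.1%) was 100% within 5 kb and for anchors with at least 2 PETs. In windows of 500 kb, 51.0% had a senescent share at least 2-fold the control share and 26.04% the reverse. The anchor with the most contacts between the blocks could not be left out in the control library, which had none. No paired analysis was possible because each group had 1 library.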
